A study of Mus musculus with 31 samples.

Results

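The mitosis genes are 33 genes that carry a cell through the separation of its chromosomes, chosen as a named list of gene symbols. All 33 were found among the 54456 genes of the whole tumour table and among the 12461 entries of the sorted cell table, and all 33 passed the filter on low values in both. They were followed in AB1-mCherry, a mouse mesothelioma line that carries a red fluorescent protein, grown as tumours at the pleural, peritoneal or subcutaneous site of untreated female BALB/c mice aged 12 weeks and collected on day 10. Whole tumours came from 6 pleural, 5 peritoneal and 5 subcutaneous tumours, and CD45-negative, mCherry-positive cancer cells were sorted from 5 tumours of each site, which makes 31 libraries in all. The inoculated line had been enriched for its brightest mCherry cells before use, so every site received descendants of that one sorted culture, and no library came from a tumour that arose in the mouse itself. Libraries are named here by the part of the mouse number in their titles after the point, which is the replicate number. The part before the point stands for the site, so equal numbers at different sites are different mice. Most whole tumour libraries share a full mouse number with a sorted cell library. The labels do not say whether both came from the same mouse. The library names of peritoneal whole tumours from mice 2, 3 and 4 carry the numbers 3, 4 and 5 instead. Values are in TPM, a relative transcript abundance scaled to transcript length and to the library's total, so a value is a share of the RNA measured and not an absolute amount.

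Entry into mitosis is driven by cyclin-dependent kinase 1 bound to B-type and A-type cyclins. The kinases Plk1, Aurora A and Aurora B then shape the spindle, the kinetochores hold the chromosomes to it, and the spindle checkpoint holds back the anaphase-promoting complex until each chromosome is attached. That complex, a ubiquitin ligase, next marks cyclin B and securin for destruction and so lets the cell divide and leave mitosis. The transcripts of these genes accumulate in G2 and M phase, and their promoters are known for a CHR element, which binds the MuvB complexes together with B-Myb and FoxM1, and for CCAAT boxes bound by NF-Y. In bulk RNA, a lower level in each cell and fewer cells in that phase cannot be told apart.

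The promoter sequences show how widely these shared elements are spread over the list. RefSeq promoters (GRCm38.p6, 250 bases before to 50 bases after the start) matched 28 of the 33 members. Those of Ccna2, Cdc25c, Aurkb, Kif20a and Tpx2 were not analysed here. The CHR was searched as TTTGAA or TTCGAA and the NF-Y box as CCAAT, both on either strand and each counted on its own, and TTCGAA reads the same on both strands. A CHR match lay in 20 of the 28 promoters (71.4%), against 19.4% of 27025 promoters in the table. Within 50 bases of the start, 18 of the 28 (64.3%) had a CHR match, against 5.29% of all promoters. A CCAAT match lay in 21 of the 28 (75%), against 37.9% of all, and both motifs lay in 18 (64.3%), against 7.70% of all. Birc5, Mad2l1, Nuf2, Nusap1 and Pttg1 had neither in this window.

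The last 120 bases before the start are given for 6 genes picked after their values were seen. Cdc20 (chr4:118437344-118437463, minus strand), Ube2c (chr2:164769809-164769928, plus strand), Cdk1 (chr10:69352913-69353032, minus strand) and Top2a (chr11:99024190-99024309, minus strand) were called in both comparisons of the peritoneal sorted cells, which share those libraries. Kif11 (chr19:37376262-37376381, plus strand) and Mki67 (chr7:135716380-135716499, minus strand) were called in no sorted cell comparison by the test on log2(TPM + 1), although Kif11 passed after the correction for transcript length and GC content described further on. Each runs 5′ to 3′ toward the start of its gene, and capitals mark CHR and CCAAT matches in either orientation, so that TTCAAA and ATTGG are matches on the opposite strand.
Cdc20: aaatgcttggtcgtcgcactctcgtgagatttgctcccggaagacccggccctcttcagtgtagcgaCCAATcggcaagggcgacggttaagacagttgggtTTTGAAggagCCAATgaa
Ube2c: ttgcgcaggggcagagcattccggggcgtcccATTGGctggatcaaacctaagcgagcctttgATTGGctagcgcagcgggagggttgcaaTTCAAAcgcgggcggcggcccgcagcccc
Cdk1: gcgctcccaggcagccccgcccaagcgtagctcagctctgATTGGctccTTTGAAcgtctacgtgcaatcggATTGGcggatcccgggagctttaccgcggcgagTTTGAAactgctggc
Top2a: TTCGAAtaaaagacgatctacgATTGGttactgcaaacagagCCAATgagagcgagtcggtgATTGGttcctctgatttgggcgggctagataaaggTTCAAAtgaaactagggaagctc
Kif11: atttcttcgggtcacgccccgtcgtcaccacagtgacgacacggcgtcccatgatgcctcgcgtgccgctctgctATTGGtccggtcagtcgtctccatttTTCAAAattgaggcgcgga
Mki67: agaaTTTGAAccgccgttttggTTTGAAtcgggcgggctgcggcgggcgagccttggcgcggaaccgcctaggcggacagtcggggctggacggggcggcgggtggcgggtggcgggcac
Kif11 holds a CHR 19 bases and Cdc20 one 18 bases before the start. Of the 19 members with a promoter that were lower in pleural than in peritoneal sorted cells, 13 had a CHR match, and of the 9 not called in that comparison 7 did. A match is a description of letters and not a binding site.

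**Figure D1:**
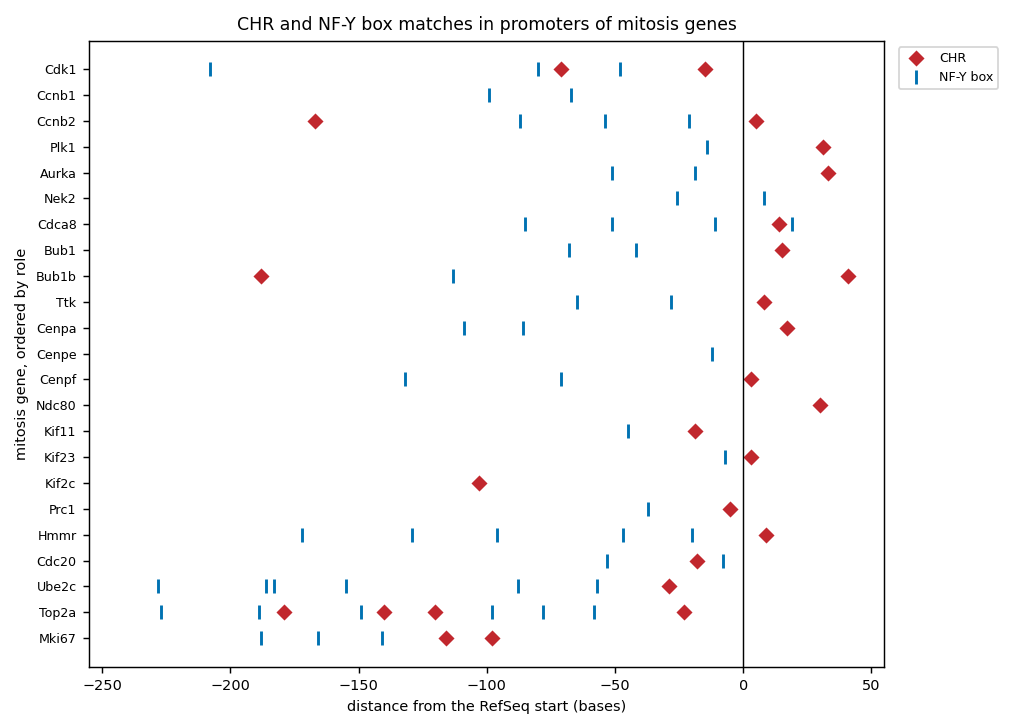
CHR and CCAAT (NF-Y box) matches in the promoters of the mitosis genes that hold at least 1 of them. The horizontal axis is the distance in bases from the RefSeq start, each row is a gene, diamonds are CHR matches and vertical ticks are CCAAT matches on either strand. Of the 27 CHR matches 18 lie within 50 bases of the start, as do 17 of the 52 CCAAT matches.

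In sorted cancer cells, most mitosis genes were at their lowest in pleural tumours and at their highest in peritoneal tumours. By the mean TPM of a site, the peritoneal cells ranked highest for 32 of 33 members and the pleural cells lowest for 30. Averaged over the 33 members on the log2(TPM + 1) scale, the pleural libraries lay between 4.92 and 5.14, the peritoneal libraries between 5.33 and 5.57 and the subcutaneous libraries between 5.02 and 5.36. The pleural and peritoneal ranges did not overlap, while the subcutaneous range overlapped both. In whole tumours the libraries lay at 5.88 to 6.08 in pleural, 5.98 to 6.17 in peritoneal and 5.78 to 5.93 in subcutaneous tumours, and there the subcutaneous tumours were lowest for 26 of 33 members. The whole tumour and sorted cell tables were normalized apart, so levels were not tested across them.

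**Figure D2:**
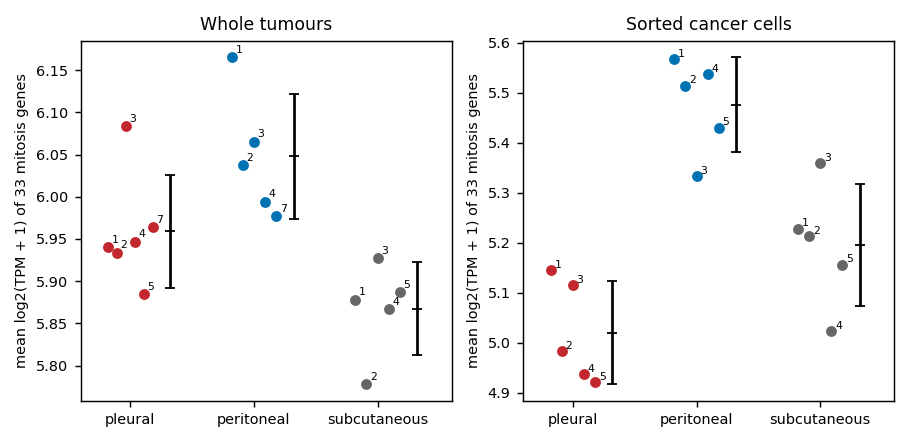
Mean log2(TPM + 1) of the 33 mitosis genes in each library, whole tumours on the left and sorted cancer cells on the right, by site. Each point is a library with its mouse number, and the black bar is the mean ± SD of a site. In sorted cells the 5 peritoneal points all lie above the 5 pleural points.

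Before the genes themselves, some libraries stood apart in other ways. In sorted cells, mitochondrial transcripts took 5.13 to 6.38% of TPM in pleural, 2.92 to 4.50% in peritoneal and 5.61 to 6.64% in subcutaneous libraries, so the peritoneal cells were lowest without overlap. The peritoneal and, less strongly, the subcutaneous sorted libraries also split by transcript length. The correlation, across genes, of a gene's deviation from its site mean with log2 transcript length was 0.49, 0.32 and 0.49 in peritoneal mice 1, 3 and 4. In peritoneal mice 2 and 5 it was -0.45 and -0.54. It was 0.16, 0.14 and 0.14 in subcutaneous mice 1, 3 and 5 and -0.24 and -0.27 in subcutaneous mice 2 and 4. Pleural libraries lay between -0.06 and 0.09. Deviations from a site mean cancel within the site, so both signs tend to occur there by construction. In whole tumours the correlation ran from -0.22 in subcutaneous mouse 2 to 0.16 in pleural mouse 2. The 9 leukocyte markers, all measured and including Ptprc, the gene of CD45, summed to 17.6 to 58.5 TPM in pleural, 20.4 to 51.7 TPM in peritoneal and 26.4 to 542 TPM in subcutaneous sorted cells, where mice 1 and 2 had 542 and 396 TPM and mouse 4 had 99.9 TPM. In whole tumours the same sum was 1247 to 1969, 1057 to 1725 and 1605 to 2196 TPM at the pleural, peritoneal and subcutaneous site. Their part in the results was not tested. Counts without subcutaneous mice 1 and 2 or without peritoneal mice 2 and 5 stand beside the sorted cell counts.

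The comparison of pleural with peritoneal sorted cells gave the most calls. Cenpf, Plk1 and Cdc20 differed most, most motor, kinetochore and cyclin genes were also lower in pleural cells, and 0 of 4 spindle checkpoint genes passed the test. Lower or fell, here and in the sorted cell paragraphs by role, compares pleural with peritoneal cells only. Against subcutaneous cells 0 of 33 members were called in pleural cells. Counts by role, here and below, cover the members of the list and not every gene of a complex or pathway. At an adjusted p below 0.05 (limma on log2(TPM + 1), Benjamini-Hochberg over all genes tested), 23 of the 33 members were lower in pleural cells and 0 were higher (26 and 0 at an unadjusted p below 0.05). Among all 12357 genes tested, 5.51% were lower and 4.45% were higher at an adjusted p below 0.05. The share of all genes at an unadjusted p below 0.05 was not worked out. Counts at that threshold, here and below, therefore have no background beside them. The pleural and peritoneal libraries did not overlap for 20 of the 33 members, all lower, against 5.96% of all genes lower and 3.6% higher without overlap. The median log2 fold change of the members was -0.45, against 0.00 over all genes tested. The count of 23 was 19 without peritoneal mice 2 and 5, which had the opposite length relation, and 27 after a correction for transcript length and GC content. It was 23 without subcutaneous mice 1 and 2. Those subcutaneous libraries are in neither group of this comparison and enter only the gene filter and the shared estimate of spread. Leaving out any 1 library kept 19 of the 23 calls, and Cdk1, Aurkb, Birc5 and Tpx2 each missed the threshold without 1 or another of pleural mice 2, 4 and 5 or peritoneal mice 1, 2, 4 and 5, with adjusted p up to 0.0738, 0.0791, 0.0892 and 0.0829 in limma.

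**Figure D3:**
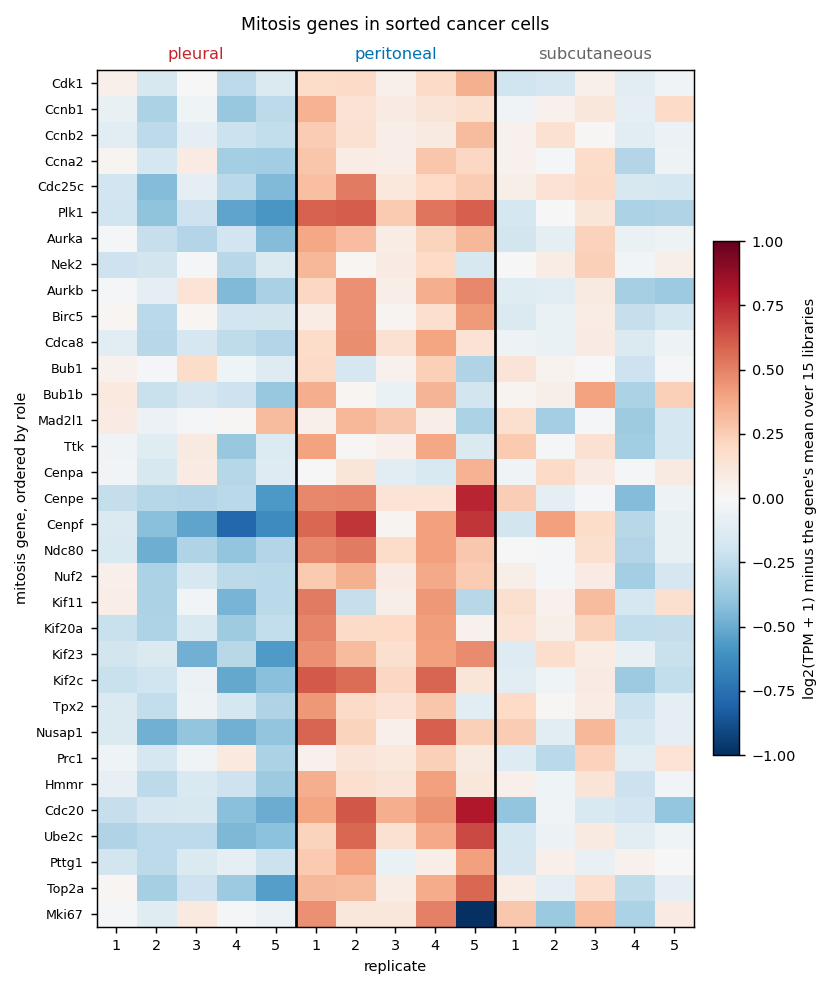
Level of each mitosis gene in the 15 sorted cell libraries. Each row is a gene and each column a mouse, in the order pleural, peritoneal and subcutaneous, and the colour is log2(TPM + 1) minus the gene's mean over the 15 libraries, with the colour scale ending at 1 above and below the mean. The peritoneal columns are mostly red and the pleural columns mostly blue, with Mki67 in peritoneal mouse 5 as a blue exception.

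Among the genes that start mitosis, 4 of 5 were lower in pleural than in peritoneal sorted cells. Cdk1, the master kinase of mitotic entry, had 142, 122, 136, 113 and 124 TPM in pleural cells of mice 1 to 5, against 155, 156, 141, 156 and 175 TPM in peritoneal cells and 119, 121, 141, 126 and 133 TPM in subcutaneous cells. Only pleural mouse 1 reached into the peritoneal range, and the log2 fold change of Cdk1 was -0.30 ± 0.08 (SE) with adjusted p = 0.0274 in limma. Cyclin B1, which Ccnb1 encodes and which activates Cdk1, gave 37.1, 31.02, 37.7, 29.7 and 32.3 TPM in pleural cells and 49.8, 43.1, 41.4, 42.7 and 43.7 TPM in peritoneal cells. These groups did not overlap, and the change was -0.39 ± 0.09 (SE) (adjusted p = 0.0151 in limma). Ccnb2, a second B-type cyclin, fell by 0.36 and Cdc25c, a phosphatase that removes the inhibiting phosphates of Cdk1, fell by 0.56 on the log2 scale in pleural cells, both without overlap (adjusted p = 0.011 and 0.011 in limma). Ccna2, cyclin A2, averaged 90.1 ± 12.7 TPM in pleural and 113 ± 8.15 TPM in peritoneal cells (SD, n = 5 each) and missed the threshold at adjusted p = 0.0523 in limma.

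Of the mitotic kinases, Plk1 was the gene with the smallest adjusted p of the whole list. Plk1, polo-like kinase 1, which acts at the centrosomes, the kinetochores and in cytokinesis, had 30.6, 26.6, 30.5, 24.3 and 23.3 TPM in pleural cells, against 53.8, 54.4, 42.6, 51.8 and 54.1 TPM in peritoneal cells and 31.3, 35.3, 38.7, 28.2 and 28.6 TPM in subcutaneous cells. Every pleural library lay below every peritoneal one, and the mean in pleural cells was 0.527 times that in peritoneal cells (log2 fold change -0.90 ± 0.11 (SE), adjusted p = 0.000653 in limma). Aurka, Aurora kinase A of the spindle poles, averaged 18.3 ± 2.04 TPM in pleural and 26.2 ± 2.20 TPM in peritoneal cells, again without overlap (adjusted p = 0.0099 in limma). Nek2, a centrosome kinase, averaged 12.7 ± 0.936 and 15.4 ± 2.09 TPM at the pleural and peritoneal site and did not pass (adjusted p = 0.102 in limma).

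All 3 listed genes of the chromosomal passenger complex, which corrects faulty attachments and later guides cytokinesis, were lower in pleural sorted cells. Cdca8, borealin, had 53.8, 47.5, 51.3, 48.4 and 46.97 TPM in pleural cells and 65.8, 80.1, 64.6, 76.4 and 64.04 TPM in peritoneal cells, with no overlap (log2 fold change -0.49 ± 0.08 (SE), adjusted p = 0.00372 in limma). Birc5, survivin, averaged 102 ± 9.56 TPM in pleural and 131 ± 18.3 TPM in peritoneal cells (SD, n = 5 each). Aurkb, the kinase of the complex, ranged from 29.1 to 43.95 TPM in pleural and from 41.9 to 55.97 TPM in peritoneal cells. The Aurkb groups overlapped while the Birc5 groups did not, and both passed (adjusted p = 0.0297 and 0.0333 in limma).

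Of the spindle checkpoint genes, which delay anaphase, 0 of 4 were called by limma. At an unadjusted p below 0.05 none of the 4 passed either, while 26 of all 33 members did. Bub1, a checkpoint kinase at the kinetochore, had 23.1, 22.2, 25.6, 21.7 and 20.4 TPM in pleural cells and 25.7, 19.8, 23.01, 26.6 and 17.9 TPM in peritoneal cells. The groups overlapped fully, and the 95% interval of the log2 fold change ran from -0.22 to 0.24. Mad2l1, which binds and holds back Cdc20, averaged 96.5 ± 10.5 TPM in pleural and 98.2 ± 16.5 TPM in peritoneal cells, with an interval of -0.28 to 0.25. Bub1b, which encodes BubR1, and Ttk, the kinase Mps1, had log2 fold changes of -0.27 and -0.26 with adjusted p = 0.222 and 0.235 in limma. After the correction for transcript length and GC content, chosen after the data were seen, Bub1b and Ttk passed at adjusted p = 0.0497 and 0.0222 in limma, while Bub1 did not (adjusted p = 0.207). Whether the checkpoint genes differ from the other roles was not tested.

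Among the kinetochore genes 4 of 5 were lower in pleural cells, and Cenpf had the largest change of any member. Cenpf, a large coiled-coil protein of the outer kinetochore, had 10.6, 8.62, 7.88, 6.44 and 7.30 TPM in pleural cells, against 18.1, 20.00, 12.1, 16.05 and 20.1 TPM in peritoneal cells and 10.3, 16.1, 13.5, 9.60 and 11.2 TPM in subcutaneous cells. Its pleural mean was 0.473 times the peritoneal mean (log2 fold change -0.99 ± 0.16 (SE), adjusted p = 0.00449 in limma), and the pleural and peritoneal groups did not overlap. Ndc80, the microtubule-binding subunit of the complex that bears its name, had 26.3, 20.7, 23.7, 22.1 and 23.8 TPM in pleural cells, against 41.4, 42.6, 33.5, 39.5 and 35.6 TPM in peritoneal cells. With 29.2, 28.95, 33.03, 23.7 and 27.9 TPM, the subcutaneous cells lay below every peritoneal library and overlapped the pleural ones, and pleural against peritoneal cells gave -0.70 ± 0.10 (SE) (adjusted p = 0.00176 in limma). Nuf2, its partner in the same complex, fell by 0.46 and Cenpe, a kinetochore motor, fell by 0.73 in pleural cells on the log2 scale, both without overlap. Cenpa, the histone H3 variant that marks the centromere, averaged 73.1 ± 7.23 TPM in pleural and 81.3 ± 11.8 TPM in peritoneal cells and did not pass (adjusted p = 0.327 in limma).

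Of the 8 spindle motors and microtubule binders, 6 were lower in pleural than in peritoneal sorted cells. Kif23, a motor of the central spindle needed for cytokinesis, had 49.9, 51.1, 40.4, 46.5 and 38.03 TPM in pleural cells and 78.2, 70.6, 63.4, 75.7 and 79.2 TPM in peritoneal cells. No libraries overlapped, and the log2 fold change was -0.69 ± 0.10 (SE) (adjusted p = 0.00258 in limma). Kif2c, a microtubule depolymerase, Nusap1, a spindle microtubule binder, Kif20a, a cytokinesis motor, and Hmmr, a spindle assembly factor, also separated the groups, with falls of 0.70, 0.72, 0.52 and 0.45 on the log2 scale. Tpx2, which activates Aurora A on the spindle, passed with overlap (-0.37, adjusted p = 0.035 in limma). Prc1, a bundler of midzone microtubules, averaged 68.6 ± 7.35 TPM in pleural and 79.5 ± 4.17 TPM in peritoneal cells and did not pass. Kif11, the motor that pushes the spindle poles apart, had 20.5, 15.4, 19.1, 13.8 and 16.02 TPM in pleural cells and 28.3, 16.4, 20.3, 26.6 and 15.9 TPM in peritoneal cells. Its peritoneal values fell into a high set (mice 1 and 4), a middle one (mouse 3) and a low set (mice 2 and 5), the same order as the length relation. Its adjusted p was 0.226 in limma, or 0.00342 after the length and GC correction. Long members did not all share this order. Cenpf, the longest at 11130 bases, was highest in peritoneal mice 2 and 5. Mki67, at 10061 bases, was highest in peritoneal mice 1 and 4.

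The genes of mitotic exit were lower in pleural cells in all 3 cases. Cdc20, which activates the anaphase-promoting complex, had 71.8, 74.8, 75.2, 62.7 and 59.5 TPM in pleural cells, against 111, 130.3, 109, 116 and 148 TPM in peritoneal cells and 63.8, 82.4, 75.6, 73.9 and 64.4 TPM in subcutaneous cells. The peritoneal cells stood above both other sites with no overlap, and the pleural mean was 0.561 times the peritoneal mean (log2 fold change -0.82 ± 0.10 (SE), adjusted p = 0.000774 in limma). Ube2c, the ubiquitin-conjugating enzyme of that complex, had 112, 115, 115, 101 and 104 TPM in pleural cells, 161, 207, 154, 180.1 and 219 TPM in peritoneal cells and 122, 133, 147, 129 and 135 TPM in subcutaneous cells. No 2 sites overlapped, with pleural cells lowest and peritoneal cells highest, and the pleural against peritoneal change was -0.73 ± 0.09 (SE) (adjusted p = 0.000774 in limma). Pttg1, securin, averaged 46.1 ± 2.04 TPM in pleural and 61.5 ± 8.81 TPM in peritoneal cells, also without overlap (adjusted p = 0.0163 in limma).

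Of the chromosome structure genes, often read as proliferation markers, Top2a was lower in pleural cells and Mki67 was not called. Top2a, topoisomerase II alpha, which untangles sister chromatids, had 132, 104, 113, 101 and 88.9 TPM in pleural cells, against 164, 163, 138, 169 and 195 TPM in peritoneal cells and 138, 122, 147, 109.5 and 122 TPM in subcutaneous cells. Pleural and peritoneal cells did not overlap (-0.62 ± 0.11 (SE), adjusted p = 0.0062 in limma). Mki67, which encodes the Ki-67 protein of the chromosome surface, had 59.9, 55.3, 64.5, 59.6 and 57.8 TPM in pleural cells, 83.3, 65.4, 65.1, 85.9 and 28.8 TPM in peritoneal cells and 72.9, 46.3, 74.7, 48.2 and 63.96 TPM in subcutaneous cells. Peritoneal mouse 5 was the lowest of all 15 libraries for Mki67 and, at 195 TPM, the highest for Top2a. The log2 fold change of Mki67 was -0.05 (adjusted p = 0.906), and without that mouse it was -0.32 (adjusted p = 0.17, both in limma).

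**Figure D4:**
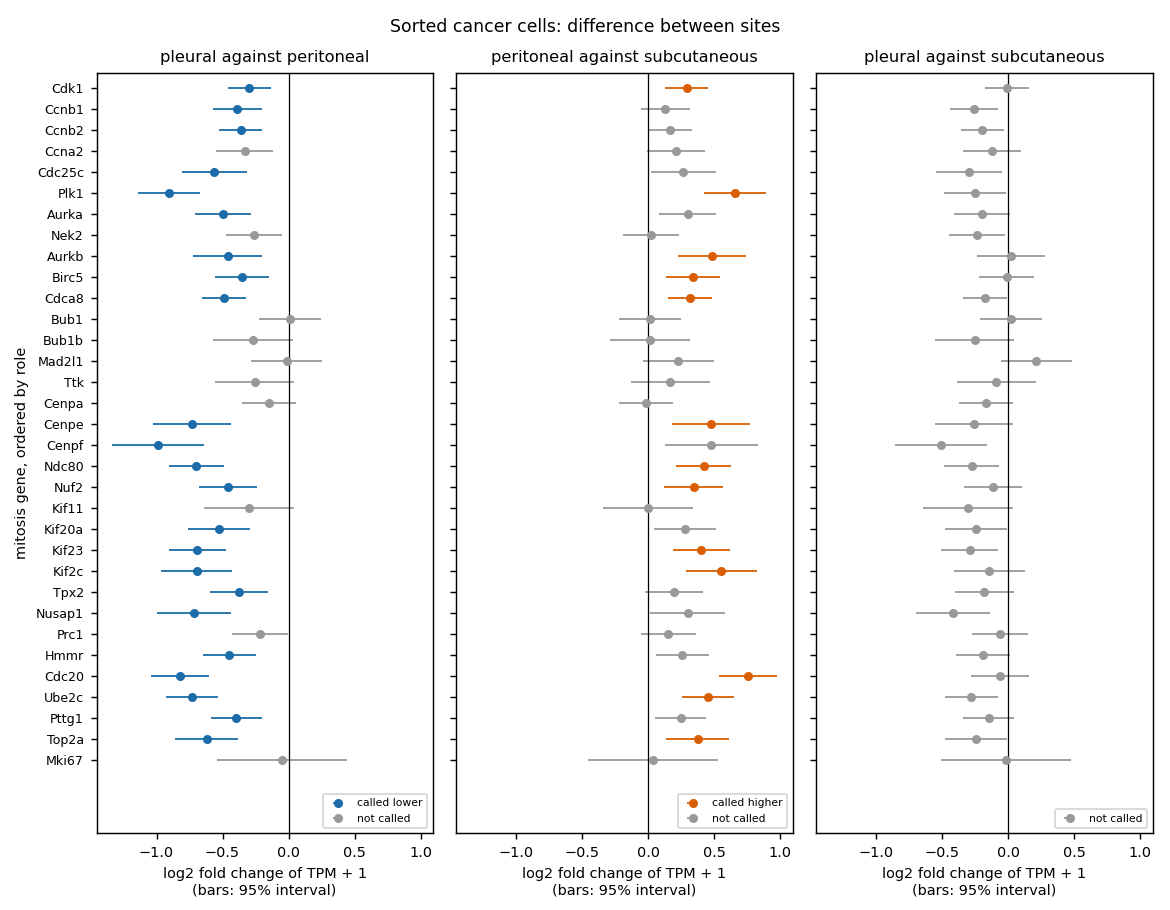
Log2 fold change of TPM + 1 of each mitosis gene between sites in sorted cancer cells, from limma with 5 libraries a site. Points are the estimates, bars the 95% interval, and colour marks the calls at an adjusted p below 0.05. In the pleural against peritoneal panel 23 points are called lower, in the peritoneal against subcutaneous panel 13 are called higher, and in the pleural against subcutaneous panel 0 are called.

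Peritoneal sorted cells had higher levels of part of the list than subcutaneous ones. Of the 33 members 13 were higher and 0 were lower (21 and 0 at an unadjusted p below 0.05), against 4.75% of all genes higher and 6.33% lower. The groups did not overlap for 6 members, all higher, against 4.43% of all genes higher and 5.04% lower without overlap, and the median log2 fold change was 0.28 in the members and -0.03 over all genes tested. The 13 were Cdk1, Plk1, Aurkb, Birc5, Cdca8, Cenpe, Ndc80, Nuf2, Kif23, Kif2c, Cdc20, Ube2c and Top2a. This comparison and the pleural against peritoneal one use the same 5 peritoneal libraries and are not independent.

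Cdc20 led this comparison, with a peritoneal mean 1.70 times the subcutaneous mean (log2 fold change 0.76 ± 0.10 (SE), adjusted p = 0.000318 in limma). Plk1 followed at 0.65 ± 0.11 (SE) (adjusted p = 0.00187) and Ube2c at 0.45 ± 0.09 (SE) (adjusted p = 0.0066), both in limma and both without overlap. Cdc20, Plk1 and Ube2c were the members that passed in each of the 29 alternatives tried, and with Kif2c and Ndc80 they make the 5 of 13 that passed without any 1 library. Kif2c averaged 24.02 ± 3.89 TPM in peritoneal and 15.98 ± 2.04 TPM in subcutaneous cells, with no overlap (0.55, adjusted p = 0.0127 in limma). All 3 listed passenger complex genes rose, by 0.48 for Aurkb, 0.34 for Birc5 and 0.31 for Cdca8 on the log2 scale. The 4 checkpoint genes did not pass, nor did the cyclins Ccnb1, Ccnb2 and Ccna2, whose peritoneal against subcutaneous changes were 0.13, 0.17 and 0.21. None of the 4 checkpoint genes had an unadjusted p below 0.05, while 21 of the 33 members did. The count was 6 without peritoneal mouse 2, 8 without peritoneal mouse 5 or subcutaneous mouse 1, and 7 without subcutaneous mouse 4 or 5. It was 6 without peritoneal mice 2 and 5 and 7 without subcutaneous mice 1 and 2, the libraries with the highest leukocyte sums. After the length and GC correction the count was 26, with no share of all genes in that setting beside it.

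Pleural against subcutaneous sorted cells gave no calls. By limma 0 of 33 members passed, against 0.397% of all genes higher and 1.25% lower. An unadjusted p below 0.05 was reached by 13 members, all lower in pleural cells, with no share of all genes at that threshold beside it. Limma with library weights called 3 members lower. The count was 0 without subcutaneous mice 1 and 2. It was 1 without peritoneal mice 2 and 5, which are in neither group and enter only the gene filter and the shared estimate of spread. The log2 fold change was below 0 for 30 of 33 members, with a median of -0.19 against -0.02 over all genes tested. Cenpf averaged 8.17 ± 1.57 TPM in pleural and 12.1 ± 2.66 TPM in subcutaneous cells (-0.51, 95% interval -0.86 to -0.16, adjusted p = 0.179 in limma). Ube2c was the member whose groups did not overlap, all pleural values lying below all subcutaneous ones, where 2.04% of all genes were lower and 1.07% higher without overlap (-0.28, adjusted p = 0.204 in limma). Cdc20, at 68.8 ± 7.24 TPM in pleural and 72.03 ± 7.91 TPM in subcutaneous cells, gave -0.06 with an interval of -0.28 to 0.15.

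In whole tumours the mitosis genes were mostly lowest at the subcutaneous site, and the proliferation genes Mki67 and Top2a and the spindle factor Hmmr were higher at both other sites. Against subcutaneous tumours, peritoneal tumours had 14 of 33 members higher and 0 lower (24 and 0 at an unadjusted p below 0.05), beside 8.52% of all 15054 genes tested higher and 3.64% lower. The groups did not overlap for 14 members, all higher, against 9.07% of all genes higher and 3.47% lower without overlap. The median log2 fold change was 0.19 in the members and 0.07 over all genes. The count of 14 was 5 under median-of-ratios scaling and 7 under quantile normalization. It was 6 without subcutaneous mouse 2, 7 without peritoneal mouse 1 or 3 and 8 without peritoneal mouse 2 or subcutaneous mouse 4. Without subcutaneous mouse 1 or 5 it was 9. It was 20 without pleural mice 3 and 5, which carried skeletal muscle transcripts. Those pleural libraries are in neither group of this comparison and enter only the gene filter and the shared estimate of spread. Muscle markers summed to 428, 1085, 55.9, 406 and 308 TPM in subcutaneous mice 1 to 5, and to at most 10.5 TPM in peritoneal tumours. Subcutaneous mouse 2, with the highest muscle sum, also had the lowest mean of the members (5.78). The part of muscle RNA in this count was not tested. Cdc20, Hmmr, Kif11, Mki67, Ndc80 and Top2a, 6 of the 14, passed without any 1 library.

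Hmmr had 34.8, 31.8, 31.05, 30.7 and 29.5 TPM in peritoneal tumours of mice 1, 2, 3, 4 and 7, against 23.6, 20.1, 26.3, 25.7 and 25.6 TPM in subcutaneous tumours of mice 1 to 5. The groups did not overlap, and Hmmr was the member that passed in each of the 29 alternatives tried (0.37 ± 0.07 (SE), adjusted p = 0.0062 in limma). Mki67 had 105, 104, 94.9, 94.04 and 96.4 TPM in peritoneal tumours and 78.96, 64.6, 88.6, 81.5 and 85.5 TPM in subcutaneous tumours. It rose by 0.31 ± 0.07 (SE) on the log2 scale without overlap (adjusted p = 0.0152 in limma), with subcutaneous mouse 2 the lowest library. Top2a had 279, 241, 247, 243 and 231 TPM in peritoneal and 214, 187, 217, 209.8 and 216 TPM in subcutaneous tumours, where mouse 2 was again lowest (0.25 ± 0.05 (SE), adjusted p = 0.0114 in limma).

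By role, the motors and binders gave 6 of 8 calls in peritoneal against subcutaneous tumours. They were Hmmr, Kif11, Kif20a, Kif2c, Tpx2 and Nusap1, with log2 fold changes from 0.21 to 0.37. Kif11 had 40.2, 36.7, 36.2, 37.5 and 36.6 TPM in peritoneal and 32.6, 27.98, 33.9, 31.2 and 33.2 TPM in subcutaneous tumours, with no overlap (adjusted p = 0.00946 in limma). The kinetochore genes gave 3 of 5, namely Ndc80, Cenpe and Cenpa at 0.27, 0.30 and 0.16. Ccnb1, Aurka and Cdc20 were the remaining calls, at 0.21, 0.19 and 0.18. The passenger complex had 0 of 3 and the checkpoint 0 of 4 called in limma, and at an unadjusted p below 0.05 these counts were 0 and 3, beside 24 of all 33 members. Cdk1, at 185 ± 11.7 TPM in peritoneal and 177 ± 6.32 TPM in subcutaneous tumours, and Ube2c, at 246 ± 5.62 and 232 ± 9.05 TPM in the same order (SD, n = 5 each), did not pass (adjusted p = 0.388 and 0.109 in limma).

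**Figure D5:**
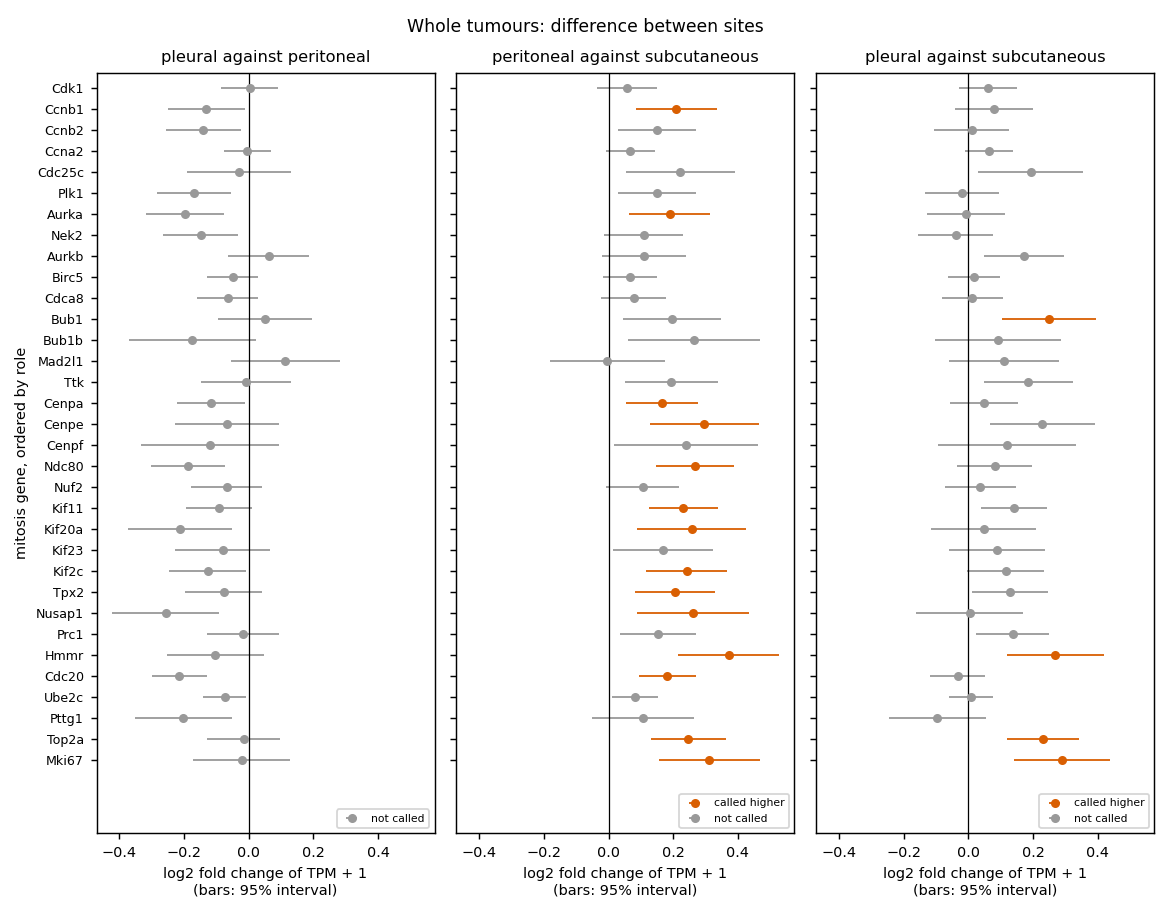
Log2 fold change of TPM + 1 of each mitosis gene between sites in whole tumours, from limma with 6 pleural, 5 peritoneal and 5 subcutaneous libraries. Points are the estimates, bars the 95% interval, and colour marks the calls at an adjusted p below 0.05. The peritoneal against subcutaneous panel holds 14 calls and the pleural against subcutaneous panel 4, all higher, and the pleural against peritoneal panel 0.

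Pleural tumours had 4 of 33 members higher than subcutaneous tumours and 0 lower (11 and 0 at an unadjusted p below 0.05). The share of all genes was 9.4% higher and 3.4% lower, so the members' share was close to the background, and their median of 0.08 was close to the 0.07 of all genes. The 4 were Top2a, Mki67, Hmmr and Bub1, whose groups also did not overlap, against 5.83% of all genes higher and 1.93% lower without overlap. Mki67 in pleural tumours had a lowest, median and highest value of 91.00, 96.2 and 107 TPM over 6 tumours, against 78.96, 64.6, 88.6, 81.5 and 85.5 TPM in subcutaneous tumours. The groups did not overlap (0.29 ± 0.07 (SE), adjusted p = 0.0173 in limma). Bub1, the checkpoint kinase, had 31.9, 34.1 and 42.4 TPM by the same measures in pleural tumours, against 31.1, 26.3, 31.1, 31.7 and 28.7 TPM in subcutaneous tumours, also without overlap (0.25, adjusted p = 0.0289 in limma). Bub1 missed the threshold without pleural mouse 2 or subcutaneous mouse 2 or 5, and Hmmr without subcutaneous mouse 2. The count of 4 was 2 under median-of-ratios scaling, 2 under quantile normalization, 1 after the length and GC correction and 5 without pleural mice 3 and 5, and 0 of the 4 passed in every alternative tried. Without subcutaneous mouse 2 the count was 2, and it was 7 without peritoneal mouse 1. That peritoneal library is in neither group and enters only the gene filter and the shared estimate of spread. The kinases Plk1, Aurka and Nek2 had log2 fold changes from -0.04 to -0.01.

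Between pleural and peritoneal whole tumours 0 of 33 members passed, beside 0.0266% of all genes in each direction. At an unadjusted p below 0.05 there were 13 members, all lower in pleural tumours, and limma with library weights called 1. The groups overlapped for all 33 members, and 0.465% of all genes were higher and 0.671% lower without overlap. Cdc20 came closest, with 105, 109 and 119.9 TPM as the lowest, median and highest of 6 pleural tumours, against 131, 127, 135, 119 and 125 TPM in peritoneal tumours (-0.21 ± 0.04 (SE), adjusted p = 0.0838 in limma). Pleural mouse 3 alone overlapped the peritoneal range. Leaving out pleural mouse 3 gave 2 calls, and leaving out pleural mice 3 and 5 gave 1. The log2 fold change was below 0 for 29 of 33 members, with a median of -0.08 against 0.00 over all genes. Plk1 had a log2 fold change of -0.17 in whole tumours and -0.90 in sorted cells, and this difference between the kinds of sample was not tested.

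Other cell cycle genes were measured beside the members. As background for these lists, here and below, all genes called in either direction are given. In sorted cells they were 9.96% in pleural against peritoneal, 11.1% in peritoneal against subcutaneous and 1.64% in pleural against subcutaneous. In whole tumours they were 12.8% in pleural against subcutaneous, 12.2% in peritoneal against subcutaneous and 0.0531% in pleural against peritoneal. Of 71 further mitosis genes, 21 were lower and 0 were higher (37 and 0 at an unadjusted p below 0.05) in pleural than in peritoneal sorted cells, with a median log2 fold change of -0.25. Espl1, the separase that cuts cohesin at anaphase, averaged 15.2 TPM in pleural and 27.7 TPM in peritoneal cells (-0.85, adjusted p = 0.00203 in limma). Dlgap5, a spindle binder, and Kif22, a chromosome arm motor, fell by 0.62 and 0.76. In peritoneal against subcutaneous sorted cells 12 of the 71 were higher and 0 lower, led by Psrc1, Dlgap5 and Kif22 at 0.53, 0.49 and 0.63, and in pleural against subcutaneous cells 0 of 71 passed in limma, with 6 lower and 1 higher at an unadjusted p below 0.05. In whole tumours 19 of the 71 were higher in peritoneal than in subcutaneous tumours, led by Cep55, Ccnf and Kif4. In pleural against subcutaneous tumours 13 were higher, led by Ska2, Cep55 and Gtse1, and 1, the checkpoint gene Mad1l1, was lower, and in pleural against peritoneal tumours 0 passed, with 9 lower at an unadjusted p below 0.05.

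Of the factors known to bind such promoters, 10.5% were called in pleural against peritoneal sorted cells, close to the 9.96% of all genes tested. Foxm1, which drives G2 and M phase transcription, averaged 37.2 TPM in pleural and 42.04 TPM in peritoneal cells (-0.16, adjusted p = 0.404 in limma). Mybl2, B-Myb, gave 0.18, and the MuvB subunits Lin9 and Lin54 gave 0.16 and 0.41, none of which passed. Of the 19 genes of this list, 1 was lower (Lin37, a MuvB subunit, -0.53) and 1 higher (E2f3, 0.48) in pleural cells. In peritoneal against subcutaneous and in pleural against subcutaneous sorted cells 0 of 19 passed in limma, with 4 and 2 at an unadjusted p below 0.05. Whole tumours had Foxm1 higher in pleural than in subcutaneous tumours (0.25, adjusted p = 0.0205 in limma) as the single call of 19, and the other whole tumour comparisons had 0, with 3 in peritoneal against subcutaneous and 0 in pleural against peritoneal tumours at an unadjusted p below 0.05.

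Replication genes were called at 10.7% in pleural against peritoneal and 7.14% in peritoneal against subcutaneous sorted cells. The shares of all genes tested were 9.96% and 11.1%. Their median log2 fold change in peritoneal against subcutaneous sorted cells was 0.22, against -0.03 over all genes tested. Of 28, 3 were lower in pleural than in peritoneal sorted cells (Mcm3, Gins3 and Gins4, of the replicative helicase, at -0.34, -0.42 and -0.28) and 2 were higher in peritoneal than in subcutaneous cells (Mcm3 and Cdc45, at 0.43 and 0.31). Pcna, the sliding clamp of the polymerase, averaged 328 TPM in pleural and 335 TPM in peritoneal cells (-0.03, 95% interval -0.19 to 0.12), and Mcm2 gave -0.02 with an interval of -0.26 to 0.22. In whole tumours Uhrf1 was the call of 28 in pleural against subcutaneous tumours and Gins4 that in peritoneal against subcutaneous tumours. At an unadjusted p below 0.05 in limma, 14 of the 28 were higher in peritoneal than in subcutaneous sorted cells and 0 lower. In pleural against peritoneal sorted cells 6 were lower and 0 higher, and in pleural against subcutaneous cells 0 passed. Whole tumours had 11 higher in peritoneal against subcutaneous and 4 lower in pleural against peritoneal tumours. Pleural against subcutaneous tumours had 5 higher and 2 lower. Subunits of the anaphase-promoting complex and its activators gave 2 of 16 lower in pleural against peritoneal cells, Fzr1 and Anapc13 at -0.46 and -0.41, and Fzr1 higher in peritoneal against subcutaneous cells at 0.33. In whole tumours Cdc23, Cdc27 and Anapc1 were higher at both the pleural and the peritoneal site than at the subcutaneous site.

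Among G1 drivers, Myc, a growth-promoting transcription factor, was lowest in peritoneal sorted cells. It averaged 105 TPM in pleural, 45.6 TPM in peritoneal and 95.8 TPM in subcutaneous sorted cells. The pleural against peritoneal change was 1.06 ± 0.29 (SE) (adjusted p = 0.0325 in limma), with overlap, and the peritoneal against subcutaneous change -1.001 (adjusted p = 0.0372 in limma), without overlap. Ccne1, cyclin E1, was also higher in pleural than in peritoneal cells (0.53), which makes 2 of 12 G1 drivers, while Ccnd1, cyclin D1, gave 0.09 and did not pass. In whole tumours 0 of 12 G1 drivers passed in limma, with 4, 3 and 2 at an unadjusted p below 0.05 in pleural against subcutaneous, peritoneal against subcutaneous and pleural against peritoneal tumours. Of 13 cell cycle inhibitors tested in sorted cells, Cdkn3 and Trp53 were lower and Btg1 higher in pleural than in peritoneal cells, at -0.63, -0.28 and 0.81. Against subcutaneous cells, peritoneal cells had Trp53 higher (0.32) and Trp53inp1 and Btg1 lower (-0.70 and -0.82). Cdkn1a, the p21 inhibitor, averaged 292 TPM in pleural and 215 TPM in peritoneal cells (0.43, adjusted p = 0.126 in limma), and Cdkn1b, p27, gave -0.13. In whole tumours 5 of 16 inhibitors were higher than in subcutaneous tumours at each of the other sites. Cdkn2a, which encodes p16 and ARF, averaged 2.02 TPM in pleural and 1.52 TPM in peritoneal tumours, against 0.791 TPM in subcutaneous tumours.

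Markers listed by cell type were measured beside these results, among them mesothelial markers, although AB1 is itself a mesothelioma line. In sorted cells Ptprc, which encodes the marker used to exclude leukocytes, averaged 0.963 TPM in pleural, 0.471 TPM in peritoneal and 4.51 TPM in subcutaneous cells. The 8 macrophage markers summed to 29.3 to 87.6, 27.2 to 72.3 and 29.8 to 803 TPM at the pleural, peritoneal and subcutaneous site. Endothelial markers, of which 3 of 7 were measured, summed to 2.13 to 12.1, 1.33 to 6.73 and 12.1 to 19.0 TPM in the same order, and Pecam1 was lower in peritoneal than in subcutaneous cells (-1.57, adjusted p = 0.00183 in limma). Fibroblast markers, all 8 measured, summed to 3207 to 4131 TPM in pleural, 2550 to 4395 TPM in peritoneal and 3554 to 6128 TPM in subcutaneous cells, with Dcn at 137, 154 and 189 TPM on average and Col1a1 at 217, 205 and 389 TPM. Col1a1 was lower in pleural and in peritoneal than in subcutaneous cells, and did not pass between pleural and peritoneal cells. In whole tumours, normalized apart, the same 8 markers summed to 3545 to 6258, 3953 to 6503 and 4724 to 6433 TPM. Whether these transcripts in sorted cells came from fibroblasts or from the cancer cells was not tested. Mesothelial markers, of which 5 of 9 were measured, went in different directions. Msln, mesothelin, averaged 249, 241 and 166 TPM at the same sites, and the sum of the 5, most of it Msln, was 196 to 363, 267 to 356 and 219.7 to 285 TPM. In pleural against peritoneal cells Krt8, a keratin, was lower (-1.87), and Pdpn, podoplanin, and Gata6, a transcription factor, were higher (0.44 and 0.45). In peritoneal against subcutaneous cells Msln and Krt18, another keratin, were higher (0.52 and 1.03) and Pdpn was lower (-0.55), and in pleural against subcutaneous cells Krt8 was lower (-2.15). The T cell markers, Acta1 and Wt1 were not analysed here in sorted cells. Neutrophil and B cell markers, with 2 of 5 and 1 of 6 measured, summed to at most 18.4 and 12.9 TPM in sorted cells. The part of these cell types in the sorted cell results was not tested.

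In whole tumours the sites also differed in muscle transcripts. The 7 skeletal muscle markers summed to 5.78 to 586 TPM in pleural, 5.98 to 10.5 TPM in peritoneal and 55.9 to 1085 TPM in subcutaneous tumours, and Acta1, skeletal actin, averaged 44.2, 0.191 and 182 TPM. Macrophage markers summed to 1563 to 3197, 1248 to 2125 and 2261 to 2870 TPM, fibroblast markers to 3545 to 6258, 3953 to 6503 and 4724 to 6433 TPM, and endothelial markers to 45.6 to 104, 49.2 to 79.5 and 70.4 to 104 TPM at the pleural, peritoneal and subcutaneous site. B cell markers summed to 15.8 to 80.3, 17.5 to 115 and 12.8 to 17.2 TPM in the same order, and T cell and neutrophil sums overlapped between all sites. Wt1, a mesothelial transcription factor, averaged 3.47 TPM in pleural and 3.85 TPM in peritoneal tumours, against 0.728 TPM in subcutaneous tumours. The part of these cell types in the whole tumour results was not tested.

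The members also varied between mice of a site. In sorted cells the median coefficient of variation over the 33 members was 10.7% in pleural, 13.4% in peritoneal and 11.9% in subcutaneous cells, and the highest were 19.2% for Cenpf, 34.7% for Mki67 and 21.9% for Cenpf. Site means spanned from 5.20 TPM for Cdc25c to 127 TPM for Cdk1 in pleural cells, and from 8.16 TPM for Cdc25c to 184 TPM for Ube2c in peritoneal cells. The members lower in pleural than in peritoneal cells spanned this range, since Cenpf and Cdc25c, near the bottom, and Ube2c and Top2a, near the top, all passed.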

How the data were processed

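RNA was sequenced as 50-base single-end reads on an Illumina HiSeq, per the labels' protocols, from whole tumours (RNeasy Plus Mini kit) and from sorted cells (RNeasy Plus Micro kit). The authors deposited TPM values, one table for each kind of sample, and the submitters' processing notes name kallisto and GRCm39, with no version or annotation given in the sources used here. TPM keeps no depth, so the depth of each library is unknown and no counting interval is given. The whole tumour libraries sum to 1000000 TPM and the sorted cell libraries to 995076 to 997372 TPM over a shorter gene list, and 17 entries of that list that had become calendar dates were left out.

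Each table was fitted apart with limma 3.58.1 in R 4.3.3 on log2(TPM + 1), the 3 sites in 1 fit with an intensity trend, over genes that reached 1 TPM in 5 or more libraries (15054 and 12357 genes). A gene was called at a Benjamini-Hochberg adjusted p below 0.05 over all genes of a comparison, and fold changes on this scale understate the change of low genes. Procedures were tested on simulated data. The labels name separate mice within a group, and p-values measure the spread between them. Replicate numbers were not treated as pairs between sites, because the titles give the mice of each site their own numbers. The deviations of same-numbered libraries were also not correlated above 0.1 in every pair.

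The members, the other gene lists, the rule for named genes and the alternatives were chosen with earlier results of these data known, and the length and GC correction was added after the data were seen. Named are all members, the 3 called genes with the smallest adjusted p of each other cell cycle list, and a set list of regulators and markers (Foxm1, Mybl2, Lin9, Lin54, Cdkn1a, Cdkn1b, Ccnd1, Myc, Pcna, Mcm2, Ptprc, Pecam1, Dcn, Col1a1, Acta1, Msln and Wt1); others named beyond these were chosen after their values were seen. Promoters came from RefSeq on GRCm38.p6, not the build of the files, and were matched by symbol. Transcript length and GC content came from GENCODE M21. The length and GC correction covers only genes with a known length, 12443 in whole tumours and 10926 in sorted cells. Member counts after it are given without the share of all genes called in that setting.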

Additional observations from a re-analysis of the deposited data

Results flagged for a closer look

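Across 198 sets of values (33 genes, 2 tables and 3 sites), 16 single values stood far from the rest of their group by Dixon's test, and chance alone flags about 1 in 20, or 9.9 of 198. In whole tumours pleural mouse 3 accounted for 5 of them as the highest of 6 libraries, with 83.8 TPM for Ccnb1, 71.3 TPM for Ccnb2, 59.9 TPM for Kif20a, 58.2 TPM for Tpx2 and 82.4 TPM for Pttg1. That mouse was 1 of the 2 pleural tumours with muscle transcripts. Pleural mouse 5 was the lowest for Prc1, at 101 TPM. Among peritoneal tumours mouse 1 was the highest for Aurkb, at 86.0 TPM, and for Nuf2, at 38.6 TPM, and mouse 7 was the lowest for Ndc80, at 36.9 TPM. In subcutaneous tumours mouse 1 was the highest for Aurka, at 44.8 TPM, and mouse 2 was the lowest for Nusap1, at 26.3 TPM, and for Top2a, at 187 TPM.

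In sorted cells 4 values stood apart. Pleural mouse 5 was low for Cenpe, at 10.2 TPM, and pleural mouse 1 was high for Nusap1, at 14.0 TPM. Peritoneal mouse 1 was high for Ccnb1, at 49.8 TPM, and peritoneal mouse 3 was low for Plk1, at 42.6 TPM, which was still above every pleural value.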

How the results depend on the processing

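No called member reversed its direction in any of the 29 alternatives of a comparison. Of the members' values over all comparisons 5377 kept their side of the threshold, 83 moved past it and 282 fell short of it. Most of the 5377 belong to members that were not called in the comparison, and only called members could fall short. Members called in every alternative numbered 12 of 23 in pleural against peritoneal sorted cells (Aurka, Cdc20, Cdca8, Cenpe, Cenpf, Kif23, Kif2c, Ndc80, Nusap1, Plk1, Top2a and Ube2c), 3 of 13 in peritoneal against subcutaneous sorted cells, 1 of 14 in peritoneal against subcutaneous whole tumours and 0 of 4 in pleural against subcutaneous whole tumours. The count of pleural against peritoneal sorted cells was 12 at an adjusted p below 0.01 and 21 when rescaled without mitochondrial, haemoglobin and antibody genes. The count of peritoneal against subcutaneous sorted cells was 20 with quantile normalization, 7 with library weights and 3 at an adjusted p below 0.01. It was 9 when rescaled without mitochondrial, haemoglobin and antibody genes. It was 7 without subcutaneous mice 1 and 2, 6 without peritoneal mice 2 and 5, and 26 with the length and GC correction, where the median was 0.41. For pleural against subcutaneous sorted cells the count was 3 with library weights and 1 without peritoneal mice 2 and 5, which are in neither group. The count of peritoneal against subcutaneous whole tumours was 7 without a filter, 5 with median-of-ratios scaling (median 0.12), 7 with quantile normalization, 3 at an adjusted p below 0.01 and 9 with the length and GC correction. That of pleural against subcutaneous whole tumours was 2 with median-of-ratios scaling (median 0.00928), 2 with quantile normalization, 0 at an adjusted p below 0.01 and 1 with the length and GC correction. That of pleural against peritoneal whole tumours was 1 with library weights and 1 without pleural mice 3 and 5. With the replicate number as a block the counts were 22 and 10 in the first 2 sorted cell comparisons and 5 in peritoneal and 1 in pleural against subcutaneous whole tumours; the numbers share no stated pairing. The cause of these shifts was not tested.

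Leaving out 1 library at a time gave 19 to 24 calls (medians -0.48 to -0.41) in pleural against peritoneal, 6 to 16 (0.24 to 0.32) in peritoneal against subcutaneous and 0 (-0.23 to -0.16) in pleural against subcutaneous sorted cells. In whole tumours the ranges were 6 to 18 (0.17 to 0.21) for peritoneal against subcutaneous, 2 to 7 (0.05 to 0.10) for pleural against subcutaneous and 0 to 2 (-0.10 to -0.07) for pleural against peritoneal tumours. Over all genes the split of higher and lower calls turned on the scaling. It was 1415 and 512 in pleural against subcutaneous whole tumours, but 720 and 853 when scaled by median-of-ratios and 674 and 718 by quantiles. In peritoneal against subcutaneous whole tumours it was 1283 and 548, but 713 and 852, and 729 and 782. In peritoneal against subcutaneous sorted cells 587 and 782 became 1525 and 961 with quantile scaling and 428 and 917 without mitochondrial, haemoglobin and antibody genes. In pleural against peritoneal sorted cells 550 and 681 became 1065 and 867 with median-of-ratios scaling and 612 and 489 without those genes, and in pleural against subcutaneous sorted cells 49 and 154 became 106 and 161 with quantile scaling. Counts of the other cell cycle lists kept within 1.5 times in 814 of their settings and moved further in 230. Depth is unknown for TPM, so its limits could not be given.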

Other observations

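In whole tumours the correlation of log2 fold change with log2 transcript length, across the 33 members, was 0.56 in pleural against subcutaneous and 0.31 in peritoneal against subcutaneous tumours. Across all 12443 genes with a length it was 0.20 and 0.10. In sorted cells, pleural against peritoneal, it was 0.07 over the 33 members and 0.33 over 10926 genes. Genes of 1 library share its composition and are not independent, so these are descriptions without a test.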
